A study of Homo sapiens with 6 samples.

Results

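The collagen chain genes are the protein-coding genes whose symbol has the form COL, a type number, A and a chain number, each of which encodes 1 alpha chain of a collagen. They were picked by gene biotype and symbol alone, which gave 44 of the 58735 genes in the deposited count table (19951 of them protein-coding). The chains were followed in MDA-MB-231, a human triple-negative breast cancer (TNBC) cell line of wild type genotype, grown as 1 line in culture. Of 6 samples, 3 received vehicle and 3 received SCH, an aqueous extract of the herb Salvia chinensis Benth, at 100 mg/l, all for 24 h, and the design text calls the 3 samples of a group biological repeats. The labels give RPMI-1640 as the medium and the methods of the study give DMEM, and nothing further is said of which cultures the repeats came from, so a p-value here measures the spread between these samples. The vehicle samples held 20291379, 18714240 and 18334857 counts in all, and the SCH samples 16836369, 17979434 and 18414924. A count of 3, taken as the smallest interpretable level, was worth between 0.148 and 0.178 CPM (a count relative to the size of its library), and such floors cover counting error only.

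Collagens are secreted or membrane-bound proteins in which 3 alpha chains wind into a helix, from identical or different chains. Fibrillar collagens form the tensile fibres of connective tissue. Type IV chains form the sheet of the basement membrane on which epithelial cells rest, and the other classes decorate fibrils, anchor them, form fine networks or span the cell membrane. Chains are hydroxylated, folded by chaperones, trimmed and cross-linked before and after secretion, and cells read the finished matrix through integrins and discoidin domain receptors. Carcinoma cells make some of these chains themselves, although fibroblasts are the usual main source in tissue.

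The type IV chains have a particular arrangement, since their genes lie head to head in 3 pairs, each pair transcribed outwards from a short shared stretch. On chromosome 13, the RefSeq start sites of COL4A1 (110307157, minus strand) and COL4A2 (110307284, plus strand) face away from each other, and the 2 genes overlap in release 29 of GENCODE on GRCh38. By that release, the exons of COL4A4 and COL4A3 on chromosome 2 are 111 bases apart, and those of COL4A6 and COL4A5 on chromosome X 346 bases apart. The shared stretches of the latter pairs are shown because COL4A5, COL4A6 and COL4A4 are compared below, while COL4A3 was too low to be tested. They come from RefSeq promoter windows on GRCh38.p14, are written on the plus strand, and carry in capitals the GGGCGG letters (in the first) and the CCAAT letters or their complement ATTGG (in the second). The first is chr2:227164454-227164564, and the second is chrX:108439588-108439837, the part of the stretch that ends just before the RefSeq start of COL4A5.
COL4A4 and COL4A3: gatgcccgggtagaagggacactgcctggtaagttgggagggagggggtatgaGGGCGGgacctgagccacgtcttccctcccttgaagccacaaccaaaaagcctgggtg
COL4A6 and COL4A5: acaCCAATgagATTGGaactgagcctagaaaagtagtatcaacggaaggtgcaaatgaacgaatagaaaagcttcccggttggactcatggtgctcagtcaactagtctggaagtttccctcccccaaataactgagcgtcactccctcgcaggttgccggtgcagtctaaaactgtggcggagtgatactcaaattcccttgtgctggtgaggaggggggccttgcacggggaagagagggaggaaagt
The first stretch held GGGCGG once (either strand), and its GC content was 61.3%. As a window of the same length, the last 111 bases before the start hold that match in 32.9% of 27305 RefSeq promoters, although the stretch itself is placed differently, with the RefSeq starts at 227164205 for COL4A4 and 227164624 for COL4A3. The second held CCAAT letters at 2 places and no GGGCGG, with a GC content of 51.2%, and CCAAT letters occur on either strand in 33.0% of all promoters over the 250 bases before the start. Of the 44 collagen chain genes, 32 had a RefSeq promoter, and 18 of these (56.2%) held GGGCGG in 250 bases, against 42.3% of all promoters. CCAAT was found in 9 of the 32 (28.1%) and TATAAA in 5 (15.6%), against 33.0% and 11.1% of all promoters. The letters TGANTCA, in either reading, were in none of the 32 and in 4.16% of all promoters. A match describes the letters of a window and no more.

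In vehicle-treated cells, collagen transcripts came mostly from a few chains. FPKM values, which the authors scaled by gene length and sequencing depth, allow levels to be compared between genes. COL8A1, a chain of the fine hexagonal network collagen type VIII, had the highest level at 51.6 ± 1.09 FPKM (SD, n = 3). COL13A1, a collagen that spans the plasma membrane at sites of adhesion, followed at 37.1 ± 1.81 FPKM. COL5A1, which helps to nucleate fibrils, stood at 13.3 ± 0.467 FPKM and COL12A1, a fibril-associated collagen, at 12.9 ± 0.219 FPKM, and the FPKM ranges of these neighbours overlapped. COL4A2 had 8.79 ± 0.176 FPKM, COL4A1 4.25 ± 0.296 FPKM, COL7A1 4.02 ± 0.372 FPKM and COL6A1 3.35 ± 0.412 FPKM, and among the last 3 of these the ranges overlapped between neighbours. The other tested chains lay between 0.0533 FPKM (COL20A1) and 3.03 FPKM (COL18A1) on average.

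Many of the family were close to silent. Of the 44 genes, 22 passed the filter on low counts and 22 did not, and the latter reached at most 11 counts in any sample. COL9A1 and COL6A5 had no count in any sample, which the floor above limits to 3 counts per sample. COL1A2, whose chain joins the COL1A1 chain in type I collagen, had 2, 1 and 0 counts in the vehicle samples and 0 in each SCH sample. COL3A1 had at most 2 counts, as did COL8A2, the usual partner of COL8A1, and COL5A3, COL6A6 and COL19A1. COL2A1, COL14A1, COL22A1, COL23A1, COL25A1 and COL26A1 had at most 1. COL4A3 and COL6A3 reached 11 counts, COL9A3 and COL24A1 8, COL11A1 and COL28A1 5, and COL10A1 and COL21A1 4. A group filter of this kind keeps a gene that is high in either group, so the 22 tested genes are not a neutral sample of the family.

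**Figure D1:**
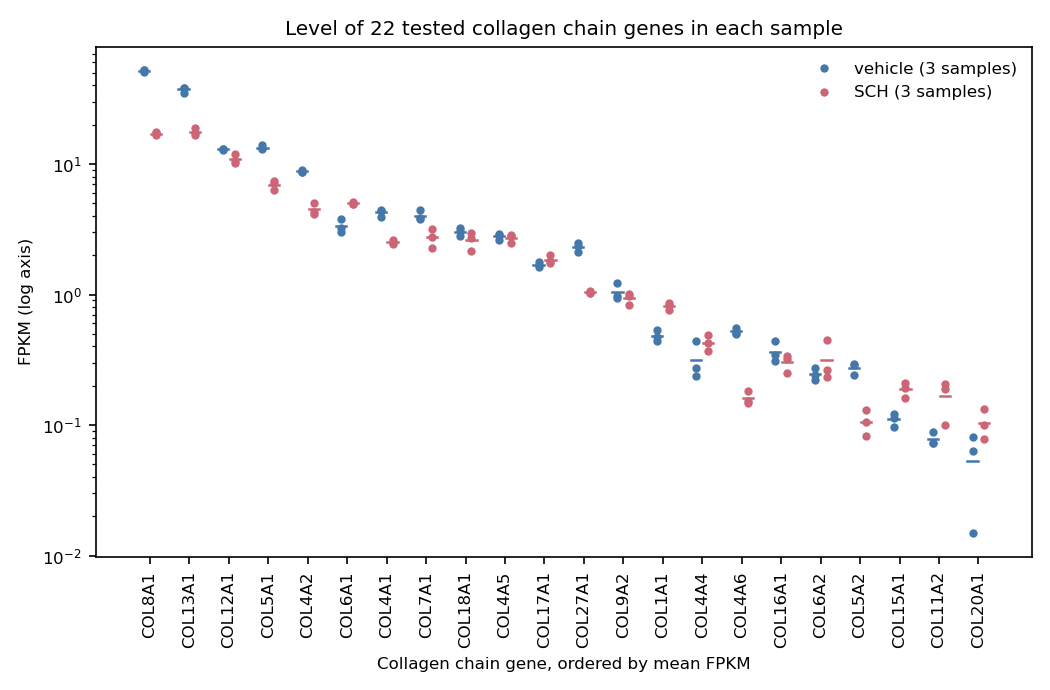
Level of the 22 tested collagen chain genes in each sample, in FPKM on a log axis, with vehicle samples in blue, SCH samples in red and short lines at the group means. COL8A1 falls from 51.6 to 17.0 FPKM and COL13A1 from 37.1 to 17.5 FPKM, while COL6A1 rises from 3.35 to 5.00 FPKM.

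After SCH treatment the family as a whole held a smaller part of the transcripts. The 44 genes took 0.144%, 0.144% and 0.142% of all counts in the vehicle samples and 0.0873%, 0.0811% and 0.0770% in the SCH samples. Every SCH sample lay below every vehicle sample, and the means were 0.144 ± 0.00129% and 0.0818 ± 0.00516% (SD, n = 3 each). In FPKM, the summed level of the family was 149 ± 2.89 in vehicle and 79.1 ± 4.66 in SCH samples. COL8A1 made up 33.7 ± 1.10% of collagen counts in vehicle and 20.9 ± 0.833% in SCH samples. Without COL8A1 the family held 0.0952 ± 0.00232% of counts in vehicle and 0.0647 ± 0.00477% in SCH samples, so the remainder was lower too. In bulk RNA, fewer cells that make a chain and less RNA per cell cannot be told apart.

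The make-up of the collagen pool shifted along with its size. The 5 chains with the highest mean level (COL8A1, COL13A1, COL12A1, COL5A1 and COL4A2) held 83.1 ± 0.742% of the summed collagen FPKM in vehicle and 71.9 ± 0.586% in SCH samples. The share of COL8A1 went from 34.6 ± 1.25% to 21.6 ± 0.733%, which left it level with COL13A1 at 22.2 ± 0.943%. COL12A1 went from 8.68 ± 0.286% to 13.7 ± 0.435% of the pool although its own level was not higher, and COL6A1 from 2.25 ± 0.245% to 6.33 ± 0.382%. COL5A1 held 8.95 ± 0.209% and 8.77 ± 0.405% of the pool and COL4A2 5.90 ± 0.120% and 5.65 ± 0.242%, which are small steps beside those of COL8A1 and COL12A1. These shares are descriptions and were not tested.

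Counts were tested with the quasi-likelihood test of edgeR over 14736 genes, with Benjamini-Hochberg adjustment over all of them and a threshold of 0.05 on the adjusted p. Of the 22 tested collagen chain genes, 15 (68.2%) changed, where 58.7% of all tested genes did. In detail, 11 of the 22 were lowered and 4 raised, where 29.4% of all tested genes were lowered and 29.3% raised. The median log2 fold change was -0.24 over the 22 chains (-0.14 when scaled by library size alone and -0.12 by limma on log2(FPKM + 1)). A log2 fold change of -1 or lower was found for 5 chains, and for 4.88% of all tested genes, while COL11A2 was the only chain raised by 1 or more. COL11A2 had 10, 11 and 9 counts in the vehicle samples and 25, 13 and 25 in the SCH samples. It thus passed the filter through the SCH samples, where it is high, so its rise is a description only. In 14 of the 22, no SCH sample overlapped any vehicle sample in normalized CPM (CPM after the TMM scaling of edgeR), a separation that 62.4% of all tested genes showed. Without the TMM factors, scaling by library size alone, 6 chains were raised and 10 lowered, while the calls over all genes moved from 49.9% to 62.6% raised and their median log2 fold change to 0.099.

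**Figure D2:**
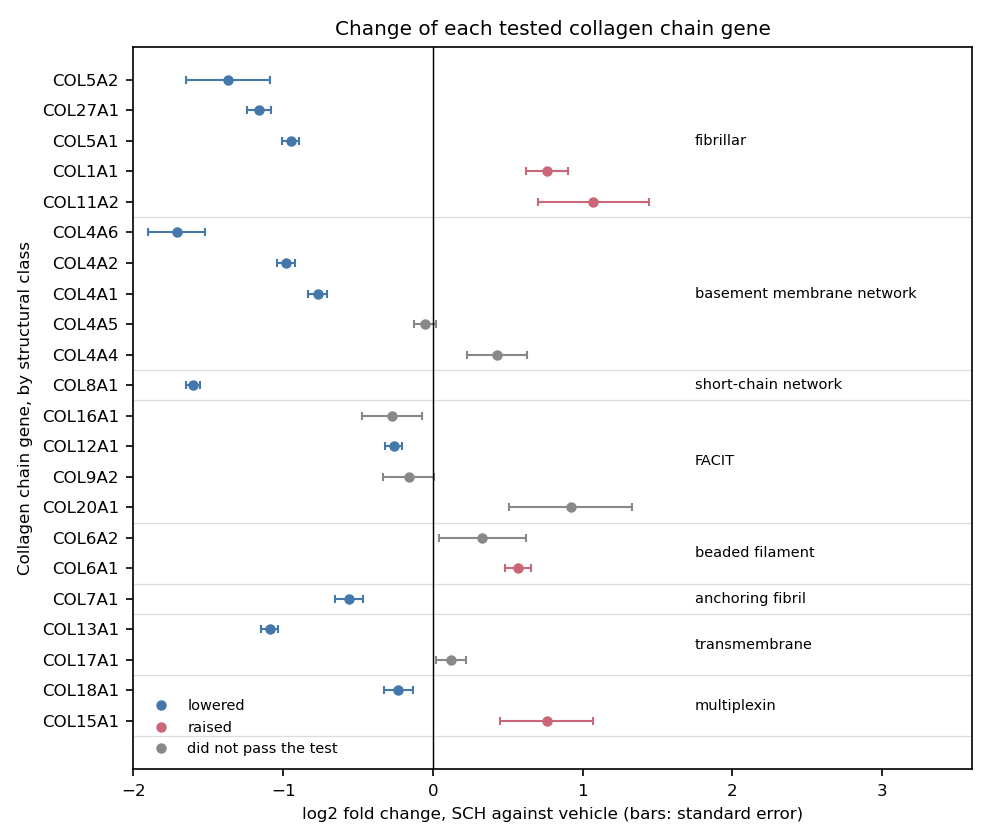
Log2 fold change of the 22 tested collagen chain genes in SCH against vehicle samples, grouped by structural class, with bars for the standard error. The lowered chains (blue) reach -1.71 for COL4A6, the raised chains (red) reach 1.07 for COL11A2, and both directions occur among the fibrillar chains and the multiplexins.

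Of the 11 fibrillar genes, 5 were tested and all 5 changed, 3 of them downward, where 58.7% of all tested genes changed. These 5 include COL11A2, whose rise is a description only, as said above, and whose call was lost in 3 alternatives. COL5A1 (chromosome 9, 134641774 to 134844843, plus strand) had 153, 160 and 150 normalized CPM in the vehicle samples and 84.3, 82.9 and 72.7 in the SCH samples. The SCH samples were all well below the vehicle samples, and the log2 fold change was -0.95 (SE 0.058, adjusted p = 2.47e-12, edgeR), a fall of 48.2%. COL27A1, a fibrillar chain best known from cartilage (chromosome 9, 114155560 to 114312511, plus strand), had 35.7, 34.1 and 30.7 normalized CPM in vehicle and 14.8, 15.4 and 14.9 in SCH samples. The groups did not overlap, and the log2 fold change was -1.16 (SE 0.082, adjusted p = 3.01e-11, edgeR). COL5A2, the partner of COL5A1 in type V collagen, was far lower in level (0.274 ± 0.0292 FPKM in vehicle) and fell by 1.37 on the log2 scale (SE 0.28, adjusted p = 0.000230, edgeR).

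COL1A1, the main chain of type I collagen, moved the other way. It had 5.43, 4.46 and 4.78 normalized CPM in the vehicle samples and 8.43, 8.70 and 7.73 in the SCH samples (chromosome 17, 50183289 to 50201632, minus strand). All SCH samples were higher, by 0.76 on the log2 scale (SE 0.14, adjusted p = 4.26e-05, edgeR), at a level that remained under 1 FPKM. COL11A2, a chain of the minor fibrillar collagen type XI, had 0.513, 0.613 and 0.506 normalized CPM in vehicle and 1.43, 0.698 and 1.31 in SCH samples. Its log2 fold change was 1.07 (SE 0.37, adjusted p = 0.0159, edgeR), and the SCH samples were spread widely. That call was lost without SCH replicate 1 (adjusted p = 0.0813) and without SCH replicate 3 (adjusted p = 0.0634).

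The short-chain network gene COL8A1 (chromosome 3, 99638475 to 99799226, plus strand, over 10 exon blocks) showed the largest fall in absolute level. It had 508, 490 and 509 normalized CPM in the vehicle samples and 168, 166 and 161 in the SCH samples. The SCH samples lay within a narrow range far below the vehicle range, which corresponded to a log2 fold change of -1.60 (SE 0.047, adjusted p = 8.32e-18, edgeR), or a 3.04-fold lower level. Of the transmembrane collagens, COL13A1 (chromosome 10, 69801867 to 69964275, plus strand) had 232, 233 and 214 normalized CPM in vehicle and 113, 100 and 105 in SCH samples. The groups were clearly apart and the log2 fold change was -1.09 (SE 0.055, adjusted p = 9.63e-14, edgeR). COL17A1, the hemidesmosome collagen of epithelial cells, had a log2 fold change of 0.12 (SE 0.099, adjusted p = 0.321) and its groups overlapped. COL23A1 and COL25A1, the other transmembrane members, were among the genes with at most 1 count.

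Of the fibril-associated chains, 4 of 10 were tested and only COL12A1 changed, where 58.7% of all tested genes did. It had 168, 164 and 169 normalized CPM in vehicle and 153, 136 and 130 in SCH samples (chromosome 6, 75084326 to 75206051, minus strand). The SCH samples were lower without overlap, but by a small step of -0.26 on the log2 scale (SE 0.057, adjusted p = 0.000448, edgeR). COL9A2 (-0.16, adjusted p = 0.439), COL16A1 (-0.27, adjusted p = 0.244) and COL20A1 (0.92, adjusted p = 0.0560) did not pass the edgeR test, the last of them at 0.0785 FPKM over all samples. COL20A1 passed without vehicle replicate 1 (1.37, adjusted p = 0.0190) and without SCH replicate 3 (1.09, adjusted p = 0.0445), but was further from the threshold without vehicle replicate 3 (0.49, adjusted p = 0.276) and without SCH replicate 1 (0.72, adjusted p = 0.205). COL7A1, the sole chain of the anchoring fibrils that tie a basement membrane to the tissue below (chromosome 3, 48564073 to 48595267, minus strand), had 43.8, 50.9 and 43.4 normalized CPM in vehicle and 36.2, 31.3 and 26.0 in SCH samples. Its groups did not overlap and the log2 fold change was -0.56 (SE 0.091, adjusted p = 1.21e-05, edgeR).

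Among the beaded filament genes of type VI and type XXVIII collagen, 2 of 6 were tested. COL6A1 (chromosome 21, 45981737 to 46005050, plus strand) had 17.8, 21.1 and 16.7 normalized CPM in vehicle and 27.2, 28.3 and 27.0 in SCH samples. It was the most abundant chain that rose, by 0.57 on the log2 scale (SE 0.087, adjusted p = 5.35e-06, edgeR), with no overlap between the groups. COL6A2, which joins COL6A1 in type VI collagen, had a log2 fold change of 0.33 (SE 0.29, adjusted p = 0.332) at a level of 0.280 FPKM over all samples. That value was 0.01 without SCH replicate 1 (adjusted p = 0.976, edgeR) and 0.52 without SCH replicate 2 (adjusted p = 0.165). Both multiplexins, basement membrane zone collagens with many interruptions of the helix, were called, where 58.7% of all tested genes were, but near the threshold. COL18A1, the source of endostatin, had 28.4, 27.1 and 24.6 normalized CPM in vehicle and 25.8, 23.7 and 19.0 in SCH samples, and the groups overlapped. Its log2 fold change was -0.23 (SE 0.095, adjusted p = 0.0425, edgeR), and 16.4% of its exonic bases are shared with other genes, most with SLC19A1 on the other strand, which had at most 5 counts. The call was lost without vehicle replicate 1 (-0.18), vehicle replicate 2 (-0.22), SCH replicate 2 (-0.25) or SCH replicate 3 (-0.10). COL15A1 had a log2 fold change of 0.76 (SE 0.31, adjusted p = 0.0415, edgeR) at 0.150 FPKM over all samples, and this call was lost when any 1 sample other than SCH replicate 3 was left out (0.67 to 0.83).

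The type IV chains were compared in pairs, since different trimers use different chains. COL4A1 and COL4A2 make the widespread trimer of basement membranes, COL4A3, COL4A4 and COL4A5 make another, and COL4A5 and COL4A6 make yet another. COL4A2 (chromosome 13, 110305812 to 110513209, plus strand) had 173, 179 and 174 normalized CPM in vehicle and 98.8, 85.6 and 82.4 in SCH samples. Its groups were clearly apart, with a log2 fold change of -0.98 (SE 0.059, adjusted p = 1.97e-12, edgeR). COL4A1 (chromosome 13, 110148963 to 110307233, minus strand) had 68.1, 66.6 and 59.7 normalized CPM in vehicle and 39.8, 37.5 and 37.1 in SCH samples, a log2 fold change of -0.77 (SE 0.066, adjusted p = 8.45e-10, edgeR). So both chains of the chromosome 13 pair were lowered.

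The pair on chromosome X did not move together. COL4A6 (108155607 to 108439497, minus strand) had 5.33, 4.79 and 4.89 normalized CPM in vehicle and 1.72, 1.45 and 1.42 in SCH samples. Its log2 fold change was -1.71 (SE 0.19, adjusted p = 7.27e-08, edgeR), or 3.27-fold lower, within 1 SE of that of COL8A1, and by limma on log2(FPKM + 0.1) COL8A1 had the larger fall (-1.59 against -1.26). COL4A5 (108439844 to 108697545, plus strand), on the other side of the CCAAT-bearing stretch printed above, had 32.0, 35.4 and 36.0 normalized CPM in vehicle and 34.9, 34.3 and 30.5 in SCH samples. The groups overlapped and the log2 fold change was -0.05 (SE 0.074, adjusted p = 0.567, edgeR), which turned to 0.05 with library size alone and to 0.02 without SCH replicate 3. RefSeq lists 2 start sites for COL4A6, at 108439458 and 108438422, and the counts per gene do not separate them. On chromosome 2, COL4A4 (227002711 to 227164453, minus strand) had 2.46, 4.57 and 2.87 normalized CPM in vehicle and 5.10, 3.81 and 4.42 in SCH samples. Vehicle replicate 2 lay inside the SCH range, and the log2 fold change of 0.43 (SE 0.20, adjusted p = 0.0739, edgeR) did not pass. It became 0.74 (adjusted p = 0.00434) without vehicle replicate 2 and 0.54 (adjusted p = 0.0427) without SCH replicate 2, but 0.26 (adjusted p = 0.330) without vehicle replicate 1, 0.33 (adjusted p = 0.237) without SCH replicate 1 and 0.35 (adjusted p = 0.199) without vehicle replicate 3. Its neighbour COL4A3 was not tested.

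**Figure D3:**
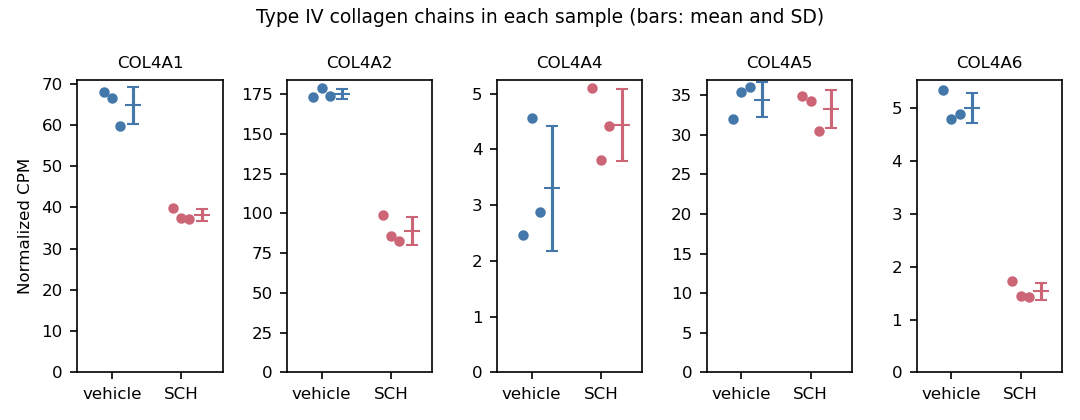
Normalized CPM of the 5 tested type IV collagen chains in each vehicle (blue) and SCH (red) sample, on axes that start at 0, with bars for the mean and SD of 3 samples. COL4A1, COL4A2 and COL4A6 are lower in every SCH sample, whereas the groups overlap for COL4A4 and COL4A5.

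The ratio of 2 chains within a sample does not depend on how the samples are scaled. Ratios were taken per kb of gene length for all 10 pairs of the tested type IV chains. The log2 ratio of COL4A5 to COL4A6 was 2.23, 2.53 and 2.52 in vehicle and 3.99, 4.21 and 4.07 in SCH samples, a linear ratio of 5.39 that became 17.0. Every SCH sample was higher, and the difference was 1.66, with an exact two-sided permutation p of 0.1, the smallest that 3 samples against 3 allow (adjusted p = 0.111 over 10 pairs). The log2 ratio of COL4A1 to COL4A2 was -0.96, -1.04 and -1.16 in vehicle and -0.92, -0.80 and -0.76 in SCH samples, so that it moved by 0.22 only, also without overlap (exact permutation p = 0.1). The ratio of COL4A2 to COL4A5 went from 3.14 to 1.64 on the linear scale and that of COL4A1 to COL4A5 from 1.51 to 0.925, so COL4A5 went from below to slightly above COL4A1 in level per kb. The ratio of COL4A4 to COL4A5 was the 1 pair whose groups overlapped (difference 0.52 on the log2 scale, exact permutation p = 0.200). With 3 samples against 3, this permutation test cannot reach 0.05 for any pair.

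The lowered chains were mostly encoded by long genes. Of the 13 tested chains whose genes span more than 100 kb, 10 were lowered (76.9%), 1 was raised and 2 did not pass, with a median log2 fold change of -0.95. Of the 9 that span up to 100 kb, 1 was lowered (11.1%, COL7A1), 3 were raised and 5 did not pass, with a median of 0.33. Over all tested genes, 40.7% of 2649 genes above 100 kb and 26.9% of 12087 genes up to 100 kb were lowered, with medians of -0.11 and 0.02. The 2 long genes that did not pass were COL4A5, which covers 258 kb, and COL4A4, which covers 162 kb. Across the 22 chains, which share their libraries and differ in level, Spearman's rho of span with the log2 fold change was -0.64, and that of mean FPKM with it was -0.49. Over all 14736 tested genes, the rho of span with the log2 fold change was -0.07. The limit of 100 kb was chosen after the values were seen, and the part of span in these changes was not tested.

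**Figure D4:**
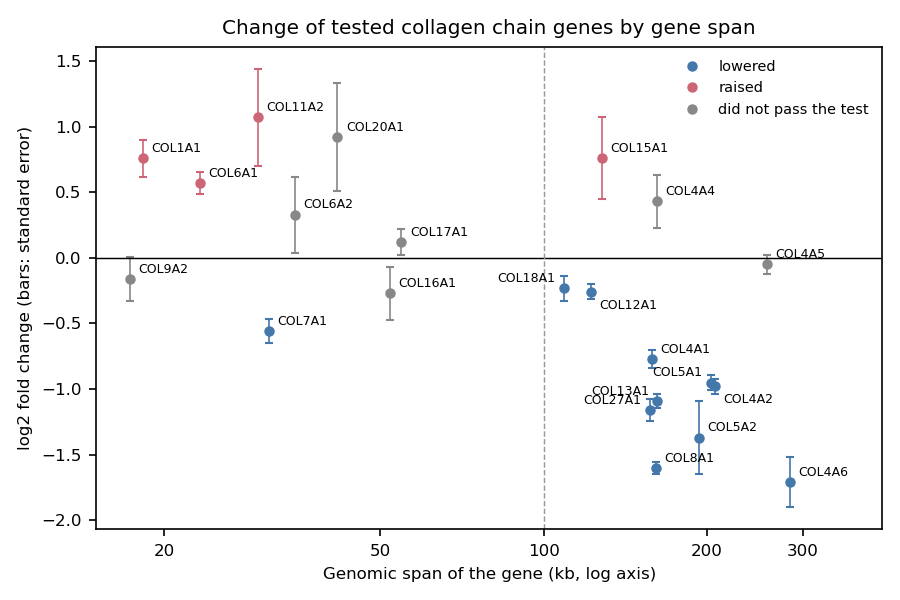
Log2 fold change of the 22 tested collagen chain genes against the genomic span of the gene in kb (log axis), with bars for the standard error and a dashed line at 100 kb. Lowered chains (blue) lie to the right of the line apart from COL7A1, and COL4A5 at 258 kb lies near 0.

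The genes that modify, fold, trim and cross-link collagen changed in both directions. Of 35 listed genes, 29 were tested and 23 (79.3%) changed, 9 raised and 14 lowered, where 58.7% of all tested genes changed (29.3% raised, 29.4% lowered). The split became 11 raised and 10 lowered with library size alone. Both tested catalytic subunits of prolyl 4-hydroxylase, which makes the hydroxyproline that stabilises the helix, rose. P4HA2 went from 7.56 ± 0.191 to 13.3 ± 0.962 FPKM (log2 fold change 0.80, adjusted p = 4.71e-11, edgeR) and P4HA1 from 19.0 ± 1.03 to 26.1 ± 1.71 FPKM (0.45, adjusted p = 1.50e-06). PLOD2, a lysyl hydroxylase, rose by 0.19 (adjusted p = 0.00584, edgeR), a call lost without vehicle replicate 2 (0.14, adjusted p = 0.0502). Its relative PLOD1 was raised too (0.26, adjusted p = 0.000194, edgeR), while PLOD3 was lowered (-0.20, adjusted p = 0.00437). SERPINH1, the collagen chaperone HSP47, was lowered from 41.5 ± 1.29 to 29.8 ± 0.796 FPKM (-0.49, adjusted p = 7.31e-09, edgeR). COLGALT2, which adds galactose to hydroxylysine, was lowered by a log2 fold change of -1.28 (adjusted p = 2.52e-10) and P3H2, a prolyl 3-hydroxylase, by -0.50 (adjusted p = 1.79e-08). Of the cross-linking enzymes, LOXL2 went from 55.8 ± 4.05 to 32.4 ± 2.25 FPKM (-0.79, adjusted p = 3.89e-11, edgeR), while LOX was at 8.80 ± 0.595 and 8.46 ± 0.346 FPKM (-0.06, adjusted p = 0.429) and its sign turned with library size alone. LOXL3 went from 0.931 to 0.343 FPKM (-1.44, adjusted p = 1.57e-06, edgeR), with 19.3% of its exonic bases shared with other genes, most with HTRA2. LOXL4 was lowered as well (-0.33, adjusted p = 0.0127), and LOXL1 did not pass (0.18, adjusted p = 0.103).

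Collagen receptors changed in a share close to that of all tested genes. Of 15 listed, 11 were tested and 6 (54.5%) changed, 4 raised and 2 lowered, where 58.7% of all tested genes changed, or 7 raised and 2 lowered with library size alone. ITGA2, the alpha subunit of the main collagen-binding integrin of epithelial cells, had 211, 213 and 238 normalized CPM in vehicle and 267, 292 and 266 in SCH samples (log2 fold change 0.32, adjusted p = 2.49e-05, edgeR). Its partner ITGB1 had a log2 fold change of 0.06 (adjusted p = 0.282), and the discoidin domain receptor DDR1 0.13 (adjusted p = 0.238). These 2 passed with library size alone (0.16, adjusted p = 0.00420, and 0.24, adjusted p = 0.0346). DDR2, the discoidin receptor for fibrillar collagen, was lowered from 0.359 ± 0.0529 to 0.107 ± 0.0135 FPKM (-1.75, adjusted p = 4.83e-07, edgeR). MRC2, an endocytic receptor that takes up collagen for breakdown, rose from 5.21 ± 0.332 to 10.1 ± 0.737 FPKM (0.94, adjusted p = 4.09e-11, edgeR), with 12.6% of its exonic bases shared with other genes. The syndecans, co-receptors on the cell surface, went apart, with SDC4 raised (0.88, adjusted p = 1.77e-13) and SDC1 lowered (-0.67, adjusted p = 7.92e-10).

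Of 14 listed proteases that can cleave collagen, 9 were tested and 6 (66.7%) changed, a share near the 58.7% of all tested genes. Of these, 5 were raised, where 29.3% of all tested genes were, and MMP16 was lowered (-0.33, adjusted p = 0.0108, edgeR), a call lost without vehicle replicate 3 (-0.25) or SCH replicate 3 (-0.25). With library size alone, 6 were raised and 0 lowered. MMP1, interstitial collagenase, had 24.4, 24.8 and 23.8 FPKM in the vehicle samples and 95.6, 98.9 and 96.3 FPKM in the SCH samples. The groups were far apart, with a log2 fold change of 1.99 (SE 0.053, adjusted p = 1.38e-18, edgeR), or 3.97-fold, and 7.61% of its exonic bases are shared with other genes, most with WTAPP1, which had at most 6 counts. MMP14, a membrane-bound collagenase, rose from 110 ± 3.91 to 132 ± 7.74 FPKM (0.26, adjusted p = 8.11e-05, edgeR) and MMP15, its relative, from 5.10 ± 0.580 to 8.13 ± 0.756 FPKM (0.66, adjusted p = 5.52e-07). The lysosomal cathepsins CTSL (0.32, adjusted p = 1.51e-05) and CTSB (0.30, adjusted p = 1.75e-05) were also raised. These are transcript levels, and neither protein nor collagen cleavage was measured in these files.

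Matrix genes whose products bind to or lie beside collagen were mostly lowered where they changed. Of 25 listed genes, 13 were tested and 9 (69.2%) changed, 8 lowered and 1 raised, where 58.7% of all tested genes changed and 29.4% were lowered. THBS1, thrombospondin-1, went from 74.4 ± 1.67 to 35.7 ± 0.867 FPKM (log2 fold change -1.07, adjusted p = 4.35e-15, edgeR) and TNC, tenascin C, from 23.0 ± 0.851 to 11.8 ± 1.27 FPKM (-0.97, adjusted p = 3.69e-12). ABI3BP, a matrix protein of low level here, was lowered by a log2 fold change of -2.10 (adjusted p = 1.43e-09, edgeR), THBS2 by -0.96 (adjusted p = 0.000197) and VCAN, the proteoglycan versican, by -2.05 (adjusted p = 0.000455). VCAN had 38, 20 and 14 counts in the vehicle samples and 3, 4 and 10 in the SCH samples. It thus passed the filter through the vehicle samples, where it is high, so its fall, 1 of the 8, is a description only. Its log2 fold change ranged from -1.60 without vehicle replicate 1 to -2.69 without SCH replicate 3. It was not called by limma on log2(FPKM + 1) (-0.09, adjusted p = 0.109). The raised gene was FBN1, fibrillin-1 (0.16, adjusted p = 0.0355, edgeR), a call lost without vehicle replicate 1 (0.18), vehicle replicate 2 (0.15) or SCH replicate 1 (0.09).

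**Figure D5:**
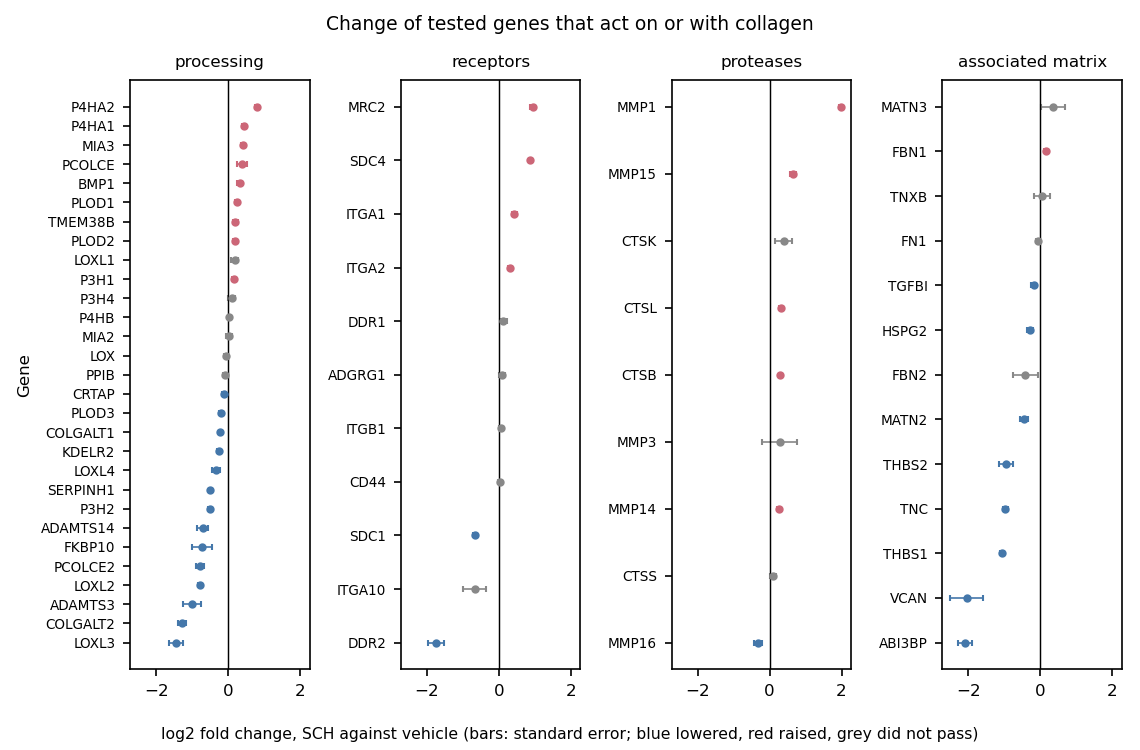
Log2 fold change of the tested genes of 4 lists, in SCH against vehicle samples, with bars for the standard error and colour for the edgeR call (blue lowered, red raised, grey did not pass). MMP1 at 1.99 is the highest point of the protease panel, and the matrix panel has 8 lowered genes and 1 raised gene.

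The label of the cells was checked on marker genes. VIM, CD44, EGFR, AXL and CAV1, markers of mesenchymal-like TNBC lines, summed to 791, 807 and 799 FPKM in the vehicle samples and 523, 530 and 522 FPKM in the SCH samples. AXL was the most abundant in each vehicle sample and VIM in each SCH sample. Of these 5, 4 were lowered, where 29.4% of all tested genes were. ESR1, PGR and CDH1 had at most 6 counts in any sample, and ERBB2 lay between 6.44 and 8.86 FPKM, raised by 0.29 on the log2 scale (adjusted p = 0.000164, edgeR), while EPCAM was lowered (-0.52, adjusted p = 9.22e-05). Of 8 fibroblast markers, DCN and FAP had no counts, LUM and PDGFRA had at most 1, THY1 had at most 3, and PDGFRB (19 to 28 counts) and ACTA2 (21 to 29 counts) did not pass the test (-0.08, adjusted p = 0.838, and 0.14, adjusted p = 0.671, edgeR). The summed 48.1, 47.6 and 42.1 FPKM in vehicle and 33.2, 32.1 and 30.7 FPKM in SCH samples was nearly all S100A4, a gene that carcinoma cells also express and that was lowered (-0.54, adjusted p = 5.34e-07, edgeR). Endothelial markers summed to between 1.13 and 1.48 FPKM over the 6 samples, mostly KDR. The 2 that were tested, KDR (-0.23, adjusted p = 0.125, edgeR, with the SCH samples below the vehicle samples) and PECAM1 (0.16, adjusted p = 0.702), did not pass, and VWF and CDH5 had at most 7 and 2 counts and were not tested. Of the leukocyte markers, CD3E had at most 1 count, CD68 2 and ITGAM 8, while PTPRC fell from 39, 37 and 34 counts to 4, 9 and 3 (log2 fold change -2.75, adjusted p = 8.80e-07, edgeR). PTPRC passed the filter through the vehicle samples, where it is high, so its fall is a description only. The part of S100A4-bearing or PTPRC-bearing cells in the collagen changes was not tested.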

How the data were processed

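Per the labels, mRNA was purified with poly-T beads, libraries were made with a kit that does not mark strand, and the sequencing was done on an Illumina HiSeq instrument. The submitters' processing notes name CASAVA 1.8, HISAT2 2.0.5, featureCounts 1.5.0-p3, DESeq2 1.20.0 and GRCh38, with no role given. The deposited tables hold whole-number counts of each gene, not normalized, and FPKM for the same genes. Within a sample the deposited FPKM values were proportional to count over gene length and total, with a scale of 0.995 to 1.01 in vehicle and 0.937 to 0.941 in SCH samples, so that FPKM lowers the SCH level slightly. All 6 columns were used. Within a group, no sample was a copy of another, as chi-square over degrees of freedom was 2.12 to 5.75 for every pair. All 58735 genes had the same start and end in release 29 of GENCODE. The columns in which the authors described genes were used for names and positions only.

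The test used edgeR 4.0.16 in R 4.3.3 (TMM, filterByExpr, glmQLFit, glmQLFTest), over 14736 genes and all 6 samples without covariates, since the methods of the study name no test for differential expression. The common biological coefficient of variation was 5.17%. The SE of a log2 fold change is its size over the root of F. Normalized CPM uses the TMM factors. Chain ratios used pairs averaging 50 counts or more. Alternatives were other scaling factors, no filter, a minimum of 10 counts per sample, DESeq2 1.42.0, limma 3.58.1 on log2(FPKM + 1) and log2(FPKM + 0.1), a block for the replicate number, each sample left out, a threshold of 0.01 and a log2 fold change of at least 1. The scripts were tested on simulated data. Python 3.11.15 was used for tables and plots.

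The members, the gene lists and the structural classes (from general knowledge) were chosen with earlier results of these data known. Values in every sample are given for the 8 tested chains with the highest mean FPKM, for the up to 6 largest rises and 6 largest falls among called chains averaging 50 counts or more, and for the type IV pairs. COL11A2, COL18A1, LOXL1, LOXL3, LOXL4, PLOD1, PLOD3, MMP16, FBN1 and the samples of PTPRC and VCAN were added after their values were seen. From each other list, up to 5 called genes with the smallest p are named, together with P4HA1, P4HA2, PLOD2, SERPINH1, LOX, MMP1, MMP14, DDR1, ITGA2 and ITGB1. RefSeq promoters were missing for COL14A1, COL1A1, COL1A2, COL20A1, COL22A1, COL2A1, COL3A1, COL5A2, COL6A1, COL6A5, COL8A1 and COL9A3. Proteins and other experiments of the study were not analysed here. The value of 1 marker gene is not reported here.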

Additional observations from a re-analysis of the deposited data

How the results depend on the processing

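Of the 22 tested collagen chains, 16 had the same sign and the same call in all 15 alternatives of the fit, and the other 6 were COL4A4, COL4A5, COL11A2, COL15A1, COL18A1 and COL20A1. The call was lost in 10 alternatives for COL15A1, 8 for COL18A1 and 3 for COL11A2, and gained in 4 for COL4A4 and 5 for COL20A1. With a minimum of 10 counts in every sample, 20 chains were tested. COL11A2 and COL20A1 were not among them and have no value in that alternative. With each sample left out in turn, 13 to 14 collagen chains, 18 to 21 processing genes, 6 to 7 receptors, 5 to 6 proteases, 7 to 9 matrix genes and 7809 to 8489 of all tested genes changed, and the median log2 fold change of the chains was -0.32 to -0.17. Requiring a log2 fold change of at least 1 left 6 chains (1 raised, 5 lowered), 2 processing genes, 1 receptor, 1 protease, 3 matrix genes and 1292 of all genes (573 raised, 719 lowered), as a larger change was asked for. Limma on log2(FPKM + 1) called 5 matrix genes in place of 9 and limma on log2(FPKM + 0.1) 6, and the cause was not tested. Among the genes whose log2 fold change is given above, its sign turned for COL4A5, LOX and the markers PDGFRB, ACTA2 and PECAM1. COL4A5 was at 0.05 with library size alone and 0.02 without SCH replicate 3, with a range of -0.10 to 0.02 when each sample was left out. LOX was at 0.04 with library size alone. The range was -0.20 to 0.06 for PDGFRB, -0.01 to 0.28 for ACTA2 and -0.08 to 0.41 for PECAM1. Some listed genes without a printed value turned as well, such as FN1 (-0.12 to 0.04), and the cause was not tested.

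Samples with the same replicate number did not deviate together (correlations of deviations 0.0464, -0.0222 and 0.022), so the number was not taken as a pairing. Such correlations cannot show whether same-numbered samples were run together, which is not known. With the replicate number as a block, 15 collagen chains (4 raised, 11 lowered) and 8705 of all genes changed, with COL15A1 not called and COL20A1 called (0.98, adjusted p = 0.0270). Depth limits the 22 untested chains, for which a change was not detectable unless it was large.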

Other observations

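Without the filter on low counts, COL6A3 and COL28A1, 2 of the 22 untested chains, passed the edgeR test. In that fit, 18 of 42 chains (5 raised, 13 lowered) and 8722 of 29453 genes were called. Its adjusted p-values were far smaller for abundant chains than in the main fit (3.02e-208 against 8.32e-18 for COL8A1, edgeR). The p-values of the 2 fits are therefore not comparable. COL6A3, a further chain of type VI collagen, had 11, 11 and 4 counts in the vehicle samples and 4, 0 and 2 in the SCH samples (log2 fold change -2.02, adjusted p = 0.0181), in contrast to the raised COL6A1. COL28A1 had 3, 1 and 5 counts in vehicle and none in SCH samples, and with 9 counts in all no fold is given. Both had their few counts mainly in the vehicle samples and were named after their values were seen, so these falls are descriptions only.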
